A study of Canis lupus familiaris with 5 samples.

Results

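Among the genes of dog skin fibroblasts that were lost in induced pluripotent stem cells (iPSCs), 95 were still at 50% or more of their fibroblast level in iNSLCs, the neural stem cell-like cells that form the first colonies. They were chosen from 32220 gene models by a fixed rule on CPM, the count of a gene scaled to a library total of 1000000. A member had at least 20 CPM in the fibroblasts, at least 50% of that level in the iNSLCs, and at most 1/16 of it (6.25%) in each of 3 iPSC clones. The mitochondrial genome and 5 short regions (on chromosomes 36, 15, 14, 7 and 9) were left out of the rule, and these regions held another 4 genes that met it. The rule used every library of the series, so the levels below are descriptions of the members and carry no test of their pattern.

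All cells came from 1 adult dog, named K9, and there was 1 fibroblast library (ear skin, passage 1), 1 iNSLC library (passage 2) and 3 iPSC libraries (clone 1 at passage 9, clones 2 and 3 at passage 8). Fibroblasts were transfected with the EP-B set of episomal vectors, which carries the human factors KLF4, L-MYC, OCT4, LIN28 and SOX2 together with GLIS1, KDM4D, NANOG, KLF2, EGFP and a dominant-negative form of mouse p53. They formed iNSLC colonies in the medium NSM, and these were moved to the embryonic stem cell medium ESM to give iPSCs. Passage and medium went with the stage in every library and cannot be told apart from it. The fibroblast and iNSLC libraries have no replicate, and the clones share 1 donor. In bulk RNA, fewer cells of a type and less RNA per cell cannot be told apart. Reads of mouse feeder cells and of the vectors were not separated from dog reads.

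Fibroblasts are mesenchymal cells that secrete and remodel the extracellular matrix, adhere to it through integrins and contract through actin cables. During reprogramming to pluripotency they take on an epithelial form, and the fibroblast transcription program is shut down while the pluripotency network is built up. The gene models carry Ensembl dog identifiers that the files do not pair with symbols, so members are named by chromosome and position in the build CanFam3.1, with identifiers for 4 of them, and the labelled cell types could not be checked against marker genes.

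Depth was 33280017 counts in the fibroblasts, 11699186 in the iNSLCs and 20021139 to 34317091 in the clones, so 3 counts, the floor used here, corresponded to 0.0901, 0.256 and 0.0874 to 0.150 CPM in the same order. The lowest count of a member was 722 in fibroblasts and 170 in iNSLCs, whereas several had few counts or 0 in a clone.

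Of the 6589 genes with at least 20 CPM in fibroblasts, 84.6% were at 50% or more of that level in iNSLCs and 3.92% were at 1/16 or less in every clone, and the members met both limits. As a group they took similar shares of the fibroblast and iNSLC libraries. They took 5.45% of all counts in the fibroblasts (Clopper-Pearson interval at 95%, 5.44 to 5.46%) and 5.65% in the iNSLCs (5.64 to 5.66%). In the clones they took 0.0730%, 0.0567% and 0.0600%, a mean of 0.0632 ± 0.00860% (SD, n = 3). Without the most abundant member the shares were 3.64% in the fibroblasts, 3.83% in the iNSLCs and 0.0472 ± 0.00436% (SD, n = 3) in the clones. These intervals cover counting error only. The median level of a member was 125 CPM in the fibroblasts, 138 CPM in the iNSLCs and 1.22, 1.80 and 1.14 CPM in the clones. At least 100 CPM were reached by 49 members in the fibroblasts and by 55 in the iNSLCs, against 2, 1 and 2 in the clones.

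**Figure D1:**
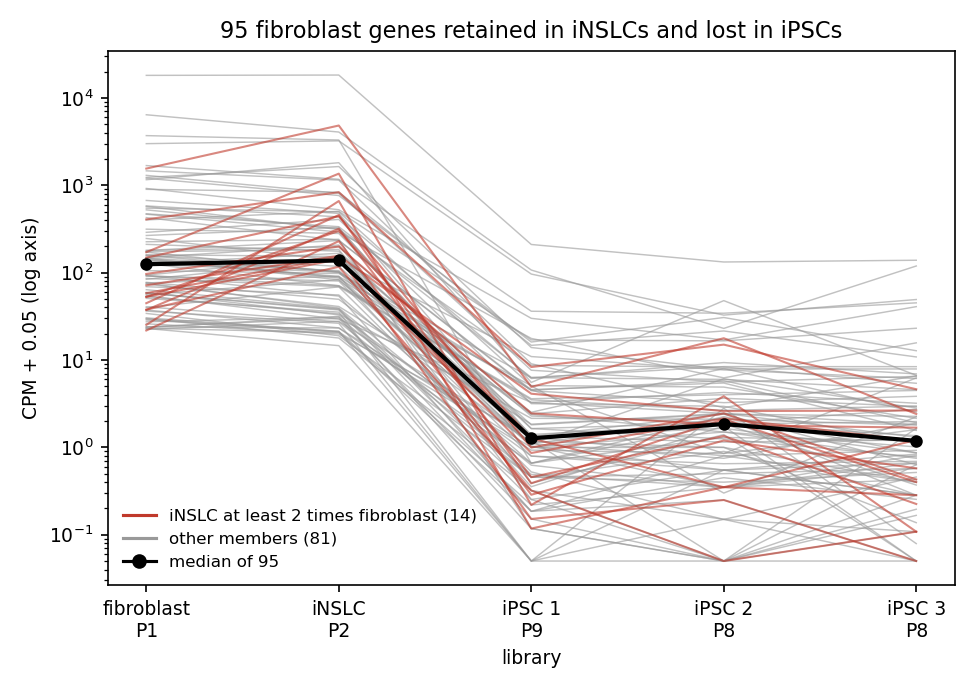
Levels of the 95 members in the 5 libraries (CPM plus 0.05, log axis), with 1 line per member and the median in black; red lines are the 14 members with an iNSLC level of at least 2 times the fibroblast level. The median is 125 CPM (fibroblasts) and 138 CPM (iNSLCs), and lies between 1.14 and 1.80 CPM in the iPSC clones.

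The members spanned a wide range of abundance, and 10 of them held 72.6% of the members' counts in the fibroblasts. The most abundant was a gene on chromosome 14 (19883733 to 19920718, 52 exons, 5749 bp of exon), with 18071 CPM (fibroblasts), 18224 CPM (iNSLCs) and 209.7, 132 and 138 CPM in the clones. It alone made up 33.2% of the members' counts in fibroblasts and 32.2% in iNSLCs. Its level in the iNSLCs was 1.01 times that in the fibroblasts (counting interval 1.003 to 1.01), and it remained the member with the highest level in every clone. On chromosome 9 (50741552 to 50856744, 70 exons), a gene had 6401 CPM (fibroblasts), 4060.0 CPM (iNSLCs) and 107, 22.9 and 119 CPM in the clones, so clone 2 was lowest by a wide margin.

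A gene on chromosome 30 (14638884 to 14864146, 65 exons) had 2989 CPM (fibroblasts), 3217 CPM (iNSLCs) and 96.1, 32.6 and 49.1 CPM in the clones. One on chromosome 11 (66189887 to 66209218) had 1678 CPM (fibroblasts), 1169 CPM (iNSLCs) and 36.1, 34.2 and 45.0 CPM in the clones. In the highest clone, 3.22% and 2.68% of the fibroblast level was left of these genes. Genes of the same abundance class could be far lower at the end. The gene on chromosome 33 (17105243 to 17139896) had 1460.3 CPM (fibroblasts), 1144 CPM (iNSLCs) and 9.0, 2.80 and 6.53 CPM in the clones. On chromosome 8 (30983633 to 30994816), 1296 CPM (fibroblasts) and 809 CPM (iNSLCs) stood against 7.58, 5.54 and 6.44 CPM in the clones. These clones were close to each other, and at most 0.585% of the fibroblast level was left.

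The list of the 10 ended with genes on chromosome 17 (30269745 to 30278554), with 1227 CPM (fibroblasts), 1635 CPM (iNSLCs) and 13.8, 7.84 and 7.84 CPM in the clones, and on chromosome 20 (3874896 to 3936083), with 1202 CPM (fibroblasts), 762 CPM (iNSLCs) and 16, 30.6 and 12.7 CPM in the clones. The remaining 2 of the 10, on chromosomes 1 and 25, are given with the remainders in the clones and with the ratios. The order of members changes when exon length is taken into account. In TPM, which divide counts by exon length before scaling to the same total, the chromosome 14 gene led with 6082 TPM in fibroblasts and 5599 TPM in iNSLCs. The short gene on chromosome 8 followed with 2167 TPM in fibroblasts and 1235 TPM in iNSLCs. The gene on chromosome 9 came next in fibroblasts, at 1514 TPM.

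The levels in iNSLCs were spread on both sides of the fibroblast level. The ratio of iNSLCs to fibroblasts had a median of 0.80 over the members and ranged between 0.519 and 26.2. At or above the fibroblast level were 36 of the 95 members (37.9%), where 47.5% of the 6589 genes were. At least 2 times the fibroblast level was reached by 14 members (14.7%), against 9.11% of those genes, and at least 4 times by 6 members (6.32%), against 1.20%. The rule bounds this ratio from below at 0.5, whereas the 6589 genes include those under 0.5. The group more like the members is the 5576 of them at 0.5 or more. Of these 5576, 3131 were at or above the fibroblast level, 600 at 2 times or more and 79 at 4 times or more. Against this group the members fell further short at the fibroblast level, and their excess at 2 and 4 times was smaller. Fibroblasts and iNSLCs are single libraries, so the shares are descriptions. Counting error was small at this depth. Its exact interval lay above 1 for 35 members and below 1 for 56, and spanned the limit of 0.5 for 4. The choice of scaling mattered more. With TMM factors of 0.770 for the fibroblasts and 0.980 for the iNSLCs, every ratio was multiplied by 0.785, so that 25 members were at or above the fibroblast level and 72 stayed above the limit of 0.5.

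The largest ratio belonged to ENSCAFG00000028817 on chromosome 20 (57783153 to 57786954, 5 exons). It had 25.2 CPM (fibroblasts) and 659 CPM (iNSLCs), and 2, 6 and 8 counts in the clones, or 0.0676, 0.300 and 0.233 CPM. The ratio of iNSLCs to fibroblasts was 26.2 (counting interval 24.4 to 28.2). It was among the less abundant members in fibroblasts and ranked among the more abundant in iNSLCs. ENSCAFG00000014546 on chromosome 3 (60081087 to 60111904) had 21.7 CPM (fibroblasts), 229 CPM (iNSLCs) and 0.237, 1.15 and 0.525 CPM in the clones, a ratio of 10.5 (9.71 to 11.5) between iNSLCs and fibroblasts. It had the lowest fibroblast level of all members.

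Ratios above 5 were also found on chromosomes 5, 25 and 27. The gene on chromosome 5 (67643124 to 67707753) had 37.3 CPM (fibroblasts), 318 CPM (iNSLCs) and 0.406, 1.30 and 0.175 CPM in the clones, with a ratio of 8.52 (7.98 to 9.09). The one on chromosome 25 (3167202 to 3209414) had 171 CPM (fibroblasts), 1356 CPM (iNSLCs) and 5, 76 and 2 counts in the clones, with a ratio of 7.92 (7.68 to 8.16). Nearly all of what was left of it in the clones was in clone 2, at 3.80 CPM. The 2 genes on chromosome 27 are neighbours and are described with the other neighbours below.

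The last 2 of the 8 members with the highest ratios were on chromosomes 25 and 9. The long gene on chromosome 25 (47970980 to 48052402, 50 exons) combined a high level in fibroblasts with a higher one in iNSLCs. It had 1549.7 CPM (fibroblasts), 4819.7 CPM (iNSLCs) and 4.87, 17.7 and 2.36 CPM in the clones, and its ratio was 3.11 (3.07 to 3.15). A short gene on chromosome 9 (39007882 to 39010042) had 37.7 CPM (fibroblasts), 116 CPM (iNSLCs) and 8, 0 and 2 counts in the clones, with a ratio of 3.09 (2.86 to 3.34).

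**Figure D2:**
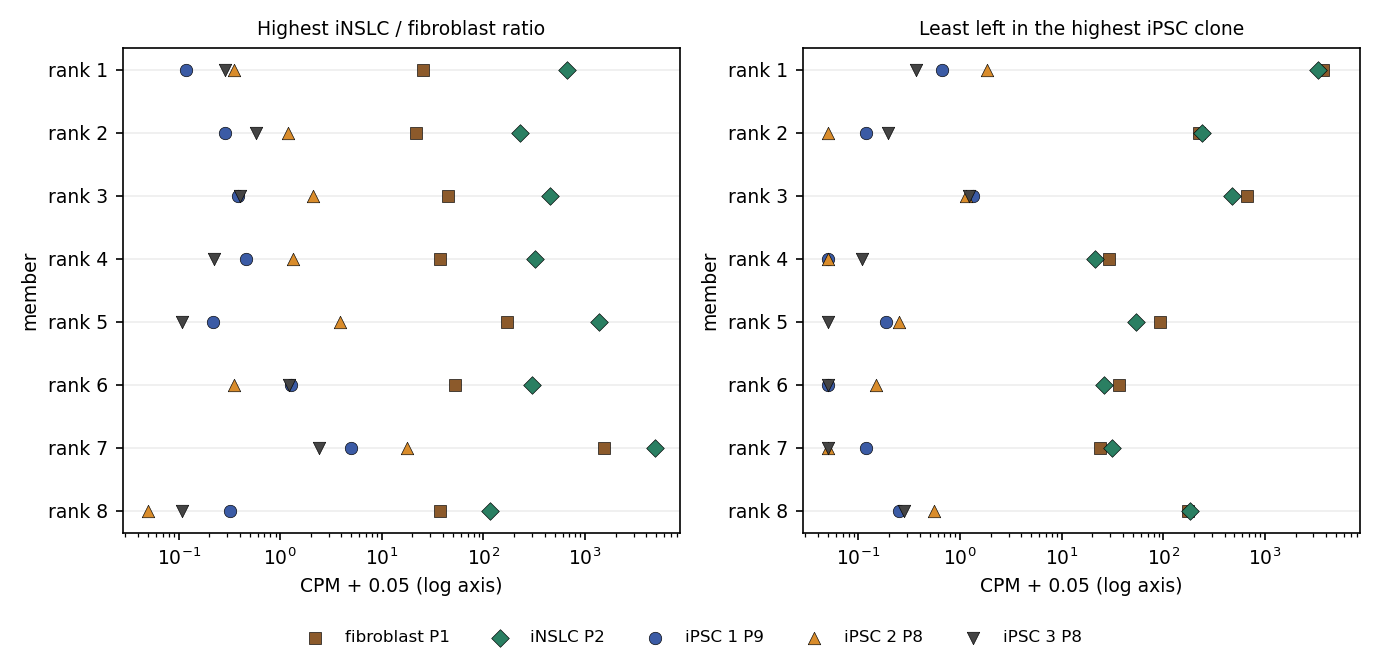
CPM plus 0.05 (log axis) in each library for the 8 members with the highest ratio of iNSLCs to fibroblasts (left, ratios of 26.2 down to 3.09) and the 8 with the least left in the iPSC clone where they are highest (right, 0.0487% to 0.288% of the fibroblast level). Squares are fibroblasts, diamonds iNSLCs, and circles, upward and downward triangles iPSC 1, 2 and 3; all clones lie left of both other libraries in every row.

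The members were far lower in iPSCs than in iNSLCs. The level of the iNSLCs was between 11.9 and 3621 times the mean of the clones, with a median of 83.3 times and with 43 members at 100 times or more. In the clone where a member was highest, a median of 1.81% of the fibroblast level was left (interquartile range 0.947 to 3.83%). Under 1% was left in every clone for 26 members, and over 3% in the highest clone for 30 members. The gene with the smallest remainder, ENSCAFG00000000874 on chromosome 1 (56400874 to 56427286, 26 exons), was also among the most abundant in fibroblasts. It had 3694 CPM (fibroblasts), 3292 CPM (iNSLCs) and 18, 36 and 11 counts in the clones, so that at most 0.0487% was left, in clone 2. ENSCAFG00000028947 on chromosome 6 (6304623 to 6321742, 25 exons) had 225 CPM (fibroblasts), 240.4 CPM (iNSLCs) and 2, 0 and 5 counts in the clones, at most 0.0647% of the fibroblast level.

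The gene on chromosome 38 (198591 to 213796) was low in the clones at a measurable level, with 669 CPM (fibroblasts), 475 CPM (iNSLCs) and 1.29, 1.10 and 1.17 CPM in the clones. On chromosome 30 (32322198 to 32405661), 173 CPM (fibroblasts) and 184 CPM (iNSLCs) stood against 6, 10 and 8 counts in the clones. On chromosome 13 (29648970 to 29684571), 92.5 CPM (fibroblasts) and 53.8 CPM (iNSLCs) stood against 4, 4 and 0 counts. At most 0.192%, 0.288% and 0.216% of the fibroblast level was left of these genes.

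Only 3 members were under 3 counts in every clone. The gene on chromosome 34 (36718785 to 36735089) had 36.2 CPM (fibroblasts), 26.2 CPM (iNSLCs) and 0, 2 and 0 counts in the clones. The ratio of fibroblasts to the pooled clones was 1519 with a counting interval from 419.6 to 12557. On chromosome 5 (14528039 to 14562907) a gene had 29.3 CPM (fibroblasts), 21.3 CPM (iNSLCs) and 0, 0 and 2 counts in the clones, a ratio of 1228 (339 to 10152). On chromosome 16 (12523396 to 12538428) a gene had 23.5 CPM (fibroblasts), 31.5 CPM (iNSLCs) and 2, 0 and 0 counts in the clones, a ratio of 987 (272 to 8164). Each of these genes had 2 counts in all clones together, all in 1 clone. The intervals treat counts as independent and would be too narrow if both mates of a pair were counted, which was not tested for them. How much of these genes was left was not measurable with so few counts.

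**Figure D3:**
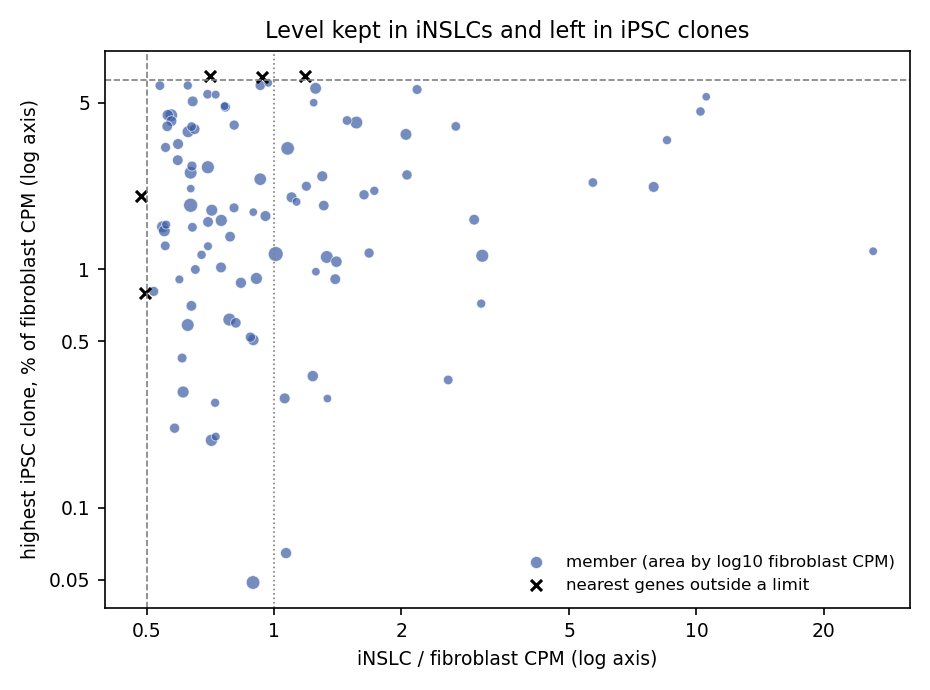
For each member, x (log axis) is the ratio of the iNSLC to the fibroblast CPM. The y axis (log) is the percent of the fibroblast CPM in the iPSC clone where the gene is highest. Dashed lines mark the limits of the rule at 0.5 and 6.25%, and the dotted line a ratio of 1. Crosses are the nearest genes outside a limit, without the chromosome 37 gene, which had 0 counts in every clone. Members fill the allowed area, with ratios between 0.519 and 26.2 and remainders between 0.0487% and 6.06%.

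In the fit over all genes (edgeR quasi-likelihood test, 17479 genes, Benjamini-Hochberg adjusted p under 0.05), 95 of 95 members were called lower in iPSCs than in fibroblasts, where 14.3% of all genes were, and 94 of 95 lower in iPSCs than in iNSLCs, where 7.71% were. The rule selected on both contrasts, so these counts say nothing further about the members. All 95 passed the filter on low counts. Fitted log2 fold changes lay between -12.58 and -4.76 against fibroblasts (median -6.80) and between -12.07 and -3.73 against iNSLCs (median -6.57), where the medians of all genes were 0.27 and 0.20. The spread came from the 3 clones alone, and the fit drew the spread of each gene toward that of the other genes. For the chromosome 14 gene log2 values were lower by a fitted change of -7.33 (standard error 0.410) against fibroblasts (edgeR adjusted p = 0.000802) and of -6.99 (standard error 0.406) against iNSLCs (edgeR adjusted p = 0.00151). For ENSCAFG00000028817 the fitted change was -7.50 (standard error 0.504) against fibroblasts (edgeR adjusted p = 0.00102). Against iNSLCs it was -11.86 (standard error 0.550, edgeR adjusted p = 0.00144). The rule had selected both genes on these contrasts, so these adjusted p-values are descriptions and add no evidence for either change.

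The member not called against iNSLCs was on chromosome 17 (56081411 to 56190624) and was singled out after its values were seen. It had 50.6 CPM (fibroblasts), 35.2 CPM (iNSLCs) and 0, 55 and 1 counts in the clones, so that nearly all of its remainder was in clone 2 (edgeR adjusted p = 0.10 against iNSLCs and 0.0457 against fibroblasts). Without clone 3, edgeR called 0 of the 95 members lower in iPSCs than in iNSLCs, although 94 had an unadjusted p under 0.05, and the smallest edgeR adjusted p was 0.0585. That fit called 0 of all 16742 genes in either direction, so its 0 is not particular to the members. On those 4 libraries DESeq2 called 92 members among 1441 of 14794 genes lower in iPSCs than in iNSLCs, and limma-voom 93 among 730 of 16742. Against fibroblasts edgeR then called 89 members among 1519 of 16742 genes.

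The clones resembled each other in the sum of the members but not gene by gene. For the 76 members with at least 3 counts in every clone, the highest clone was 2.21 times the lowest at the median. It was less than 2 times the lowest for 35 members and at least 5 times for 13. This spread was not compared with that of other genes. The widest gap was that of a gene on chromosome 14 (36918913 to 36947518), with 546 CPM (fibroblasts), 496 CPM (iNSLCs) and 148, 5 and 75 counts in the clones, or 5.01, 0.250 and 2.19 CPM. Clone 1 was 20 times clone 2 there. A gene on chromosome 28 (32131715 to 32160392) went the other way, with 1155 CPM (fibroblasts), 1809 CPM (iNSLCs) and 5.48, 47.7 and 6.61 CPM in the clones. Both genes were chosen here after their values were seen.

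Clone 2 was the highest clone for 41 members (43.2%), clone 1 for 33 and clone 3 for 21. Among the 6589 genes with at least 20 CPM in fibroblasts, clone 2 was highest in 27.2%. Among the 163 genes lost in every clone but under 50% of the fibroblast level in iNSLCs, clone 2 was highest in 36.8%. It exceeded each other clone by more than 2 times in 19 members, and was under 50% of each in 14. The median remainder was 1.09%, 1.44% and 1.02% of the fibroblast level in clones 1, 2 and 3, a mean of 1.18 ± 0.226% (SD, n = 3). Among the 14 members at 2 times the fibroblast level or more in iNSLCs, clone 2 was highest in 10, clone 1 in 4 and clone 3 in 0. Among the 59 members below the fibroblast level in iNSLCs, these numbers were 22, 21 and 16 for clones 2, 1 and 3. The 14 members were low in the clones, with a median of 1.08 CPM for the mean of the clones. The numbers by ratio were not compared with other genes at the same ratios. The titles give clone 1 the same number as the iNSLC library, and whether this marks a shared line is not stated there. Clone 2 had the fewest counts, and the part of depth in these numbers was not tested.

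**Figure D4:**
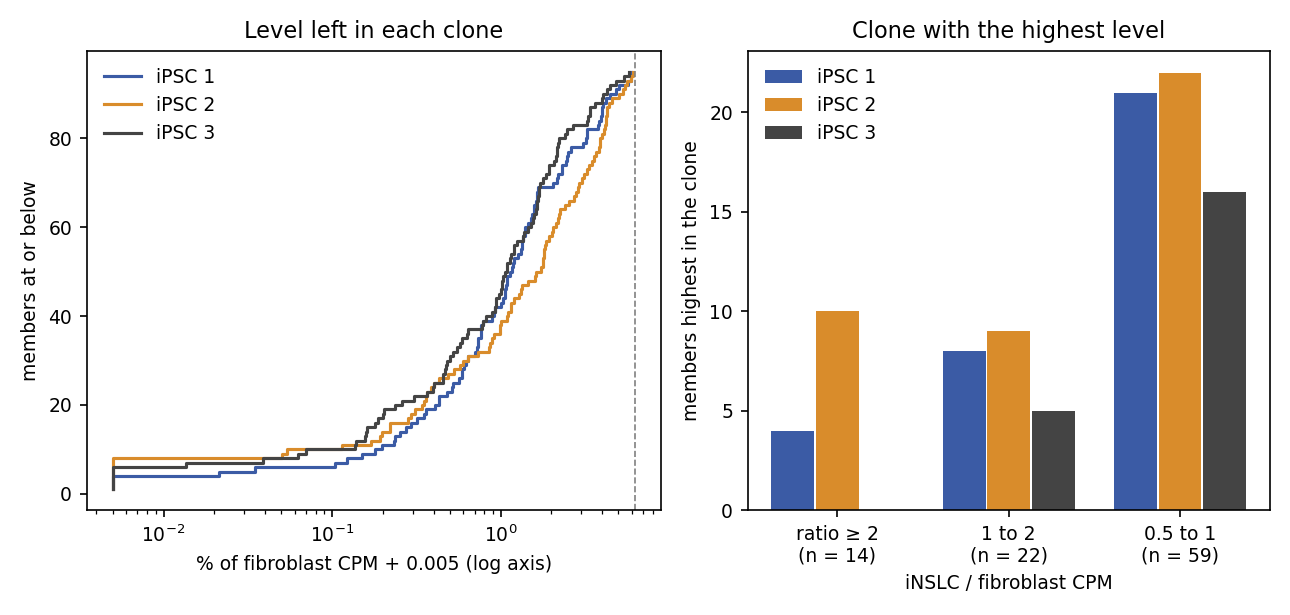
Left: number of members (y) at or below a given percent of the fibroblast CPM (x, plus 0.005, log axis) in each iPSC clone, with the limit of 6.25% dashed. Right: number of members that are highest in each clone, grouped by the ratio of iNSLCs to fibroblasts. In the group at 2 or more, clone 2 is highest in 10 of 14 members and clone 3 in 0. Other genes at these ratios were not compared.

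The members lay on 32 chromosomes, and 7 chromosomes held 0. Chromosome 9 held 7 members, or 1.75% of its 400 genes with at least 20 CPM in fibroblasts, and chromosomes 11 and X held 6 each, or 3.13% and 2.93% of such genes. The highest share was 3.64%, on chromosome 38, with 2 of 55 genes. Over the whole genome the members were 95 of 6589 such genes. There were 6 groups of members within 200 kb of each other, with 13 members in all. How often other genes lie this close was not examined. On chromosome 27, 2 convergent genes 15213 bp apart were both higher in iNSLCs than in fibroblasts. The first (37951311 to 37960918) had 52.6 CPM (fibroblasts), 299 CPM (iNSLCs) and 1.22, 0.300 and 1.17 CPM in the clones, a ratio of 5.68 (5.37 to 6.02). The second (37976132 to 37985995) had 44.6 CPM (fibroblasts), 456 CPM (iNSLCs) and 0.338, 2.05 and 0.350 CPM in the clones, a ratio of 10.2 (9.65 to 10.8). The neighbours thus shared the higher level in iNSLCs but not the order of the clones, clone 2 being lowest for the first and highest for the second.

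On chromosome 11 the abundant gene at 66189887 to 66209218 had a divergent partner with 1 exon (66211298 to 66212278), whose model starts 2079 bp away. The partner had 160.2 CPM (fibroblasts), 153 CPM (iNSLCs) and 2.23, 1.85 and 2.68 CPM in the clones. On chromosome X, 3 members lay between 1357400 and 1466731. The outer genes had 75.7 CPM (1357400 to 1424530, minus strand) and 522 CPM (1437525 to 1466731, plus strand) in fibroblasts, 39.2 CPM and 318 CPM in iNSLCs, and at most 0.612 CPM and 1.60 CPM in a clone. The middle gene (1410987 to 1431550, plus strand) had 918 CPM (fibroblasts), 524 CPM (iNSLCs) and 29.9, 16.9 and 40.7 CPM in the clones. It kept 4.43% of its fibroblast level in clone 3, whereas the outer genes kept at most 0.809% and 0.306% in any clone. The first of these models overlaps the middle one on the opposite strand without a shared exon base.

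On chromosome 5, 2 convergent members 3265 bp apart were both above the fibroblast level in iNSLCs. The gene at 55782140 to 55828330 had 55.8 CPM (fibroblasts), 83.0 CPM (iNSLCs) and 1.29, 2.35 and 2.21 CPM in the clones. The gene at 55831596 to 55972118 had 93.6 CPM (fibroblasts), 153 CPM (iNSLCs) and 1.35, 1.80 and 1.92 CPM in the clones. Elsewhere on chromosome 5, the gene at 14506206 to 14512158 had 579 CPM (fibroblasts), 434 CPM (iNSLCs) and 6.09, 9.29 and 6.88 CPM in the clones, next to the gene at 14528039 that was nearly absent from the clones. On chromosome 8, 2 members of the same strand (72419958 to 72420773 and 72423345 to 72430357) had 28.6 and 148 CPM in fibroblasts and 20.8 and 103 CPM in iNSLCs. The clones had 0.879, 0.799 and 1.54 CPM of the first and 2.33, 1.45 and 0.699 CPM of the second. Clone 3 was thus highest for the first and lowest for the second.

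The median member had 10 exons and 2998 bp of exon within 28606 bp of genome. The other 6331 genes with at least 20 CPM in fibroblasts that were not lost in the clones had medians of 11 exons, 2917 bp and 28486 bp. Members with 30 exons or more were 13 of 95 (13.7%), against 7.22% of those genes, and members with 1 exon were 3 (3.16%), against 2.24%. The members were more abundant, with a median of 83.2 TPM in fibroblasts against 39.9 TPM, and 11 of them (11.6%) had 1000 CPM or more in fibroblasts against 0.932%. Another gene model overlapped the span of 27 members and shared exon bases with 5 (on chromosomes 1, 9, 11, 12 and 22), so that counts of these 5 can be split between models or hold reads of the other strand.

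The members were 36.8% of the 258 genes that had at least 20 CPM in fibroblasts and were at 1/16 or less of it in every clone. The remaining 163 were below 50% of the fibroblast level in iNSLCs, with a median ratio of 0.168, and 37 of them were already at 1/16 or less. Of the 6331 genes that were not lost, 86.6% were at 50% or more of the fibroblast level in iNSLCs. Both shares rest on the same fibroblast and iNSLC libraries and were not tested. Members made up 34.4% of the lost genes with 1000 CPM or more, 35% of those with 100 CPM or more and 39.0% of those with less, and the median level of fibroblasts was 125 CPM for members and 129 CPM for the others. The median member kept 1.81% in its highest clone, and the median of the others kept 2.27%. Clone 2 was highest in 43.2% of the members and in 36.8% of the others. Members had 30 exons or more in 13.7% and the others in 6.75%.

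The limits of the rule passed through a continuous range. Just inside the iNSLC limit were the genes at 1357400 on chromosome X, at 55358797 on chromosome 3 and at 83815225 on chromosome X, with ratios of 0.519, 0.536 and 0.544. Just outside were genes on chromosomes 21 (447197 to 552511), 37 (30866753 to 30886347) and 2 (69410159 to 69459246), with ratios of 0.496, 0.488 and 0.485. The gene on chromosome 37 had 20.3 CPM (fibroblasts), 9.92 CPM (iNSLCs) and 0 counts in every clone. Just inside the iPSC limit were genes on chromosomes X (81356260 to 81463082), 1 (42379716 to 42831889) and 8 (64280120 to 64365863), with 6.06%, 5.91% and 5.90% left in the highest clone. Just outside were genes on chromosomes 17 (14507580 to 14515957), 2 (75997665 to 76038112) and 28 (27903015 to 28009976), with 6.38%, 6.46% and 6.47%. The member on chromosome 1 has 147 exons and 32201 bp of exon and had the lowest fibroblast level per length of all members, with 6.33 TPM in fibroblasts and 5.35 TPM in iNSLCs.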

How the data were processed

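RNA of 5 libraries from 1 dog was sequenced. The authors deposited whole-number counts of reads for each gene model without normalization. The submitters' processing notes name featureCounts 1.5.2, STAR 2.5.3a, Trim Galore 0.4.0 and the build CanFam3.1. Strand and multi-mapping settings are not stated there. The table of the whole series was used, and the files of single libraries differed from it in 0 values. Gene names were taken from no source, as the RefSeq table at hand (UU_Cfam_GSD_1.0, 43286 rows) holds an Ensembl ID in 0 rows, and 0 of 32220 IDs matched. The lists of markers and pathways that were set down were therefore not analysed, and no sequences were at hand.

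CPM were counts divided by column totals, TPM used summed exon lengths, and exons of a model were merged where they overlapped. The members and lists were chosen with earlier results of these data known. Members were named by rank: the 10 most abundant in fibroblasts, the 8 highest iNSLC to fibroblast ratios, the 8 smallest remainders in the highest clone, the 3 nearest each side of the iNSLC and iPSC limits, members under 3 counts in every clone, and members within 200 kb of each other. Others were added after their values were seen. Tests across genes used edgeR 4.0.16 in R 4.3.3 (TMM, filterByExpr, quasi-likelihood, 3 groups in 1 fit, Benjamini-Hochberg adjustment) and were tested on simulated data. The spread came from 3 clones, so the lone libraries were assumed to vary like clones. The p-values thus measure the spread between clones of 1 donor. Standard errors of edgeR fold changes were computed as the fold change divided by the square root of the F statistic. Alternatives used DESeq2 1.42.0, limma-voom 3.58.1, other scalings, no filter, halved counts and other limits. Exact intervals (scipy 1.17.1, 95%) cover counting error only. Even values made up 74.0% of the counts from 1 to 10 in iNSLCs and 59.6% to 64.0% in the other libraries, and counting of both mates of a pair, which would make intervals too narrow, was not tested beyond the halved counts.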

Additional observations from a re-analysis of the deposited data

How the results depend on the processing

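With the settings tried here other than those named next, the number of members stayed within 1.5 times of 95. With an iPSC limit of 1/8 it was 147, with an iNSLC minimum of 1/4 of the fibroblast level 156, and with an iNSLC minimum equal to the fibroblast level 36. Leaving out 1 clone at a time gave 100 to 115 members. With TMM factors there were 99 members, of which 72 were among the 95, the median ratio of iNSLCs to fibroblasts was 0.632 in place of 0.80, and the median remainder in the mean of the clones was 0.896% of the fibroblast level in place of 1.28% (1.06% to 1.37% without 1 clone). The iNSLC limit thus depended on the scaling. Of the 95 members, 89 to 95 were called lower against fibroblasts without 1 clone and 0 to 95 against iNSLCs. The calls over all genes moved too. Against iNSLCs edgeR called 0 of 16742 genes lower without clone 3, 2604 of 17138 without clone 2 and 1134 of 17061 without clone 1. Against fibroblasts it called 1519, 3270 and 2027 lower in the same order, of the same numbers of genes. With all clones, the other scalings, DESeq2, limma-voom, no filter and halved counts called 93 to 95 in both comparisons. Over all genes these settings called 1810 of 17479 (library size only) to 2843 of 17140 (DESeq2) lower against fibroblasts. Against iNSLCs they called 1173 of 17479 (library size only) to 1929 of 15784 (DESeq2) lower. As the rule selected on both comparisons, the steady number of members called is no test of them. For the 38 members named by rule, 645 refitted fold changes kept their direction and side of the threshold, and 39, all without clone 3, kept their direction but lost the call. The alternatives with DESeq2 and limma-voom without 1 clone were chosen after seeing the data. No paired analysis was possible because the fibroblasts and the iNSLCs had 1 library each and all cells came from 1 dog. Depth limits the remainder of the scarcest members, as 3 counts correspond to 0.0874 to 0.150 CPM in the clones.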
